A study of Mus musculus with 2 samples.

Results

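The iron uptake and storage genes described here are the 10 mouse genes Tfrc, Slc11a2, Steap3, Fth1, Ftl1, Ncoa4, Slc40a1, Aco1, Ireb2 and Fbxl5, chosen by symbol from the 18987 genes listed in the deposited table. All 10 were listed, each under 1 identifier. The study compared RANKL-treated RAW264.7 cells carrying an shRNA against Cpeb4 with RANKL-treated RAW264.7 cells carrying a control shRNA, with 1 library in each group. RAW264.7 is a mouse macrophage line, and RANKL is the cytokine under which such cells become osteoclasts. Cpeb4 encodes an RNA-binding protein that acts on mRNAs with U-rich elements in their 3′ UTR. Cells were plated at 7500 per cm2 and given 100 ng/ml RANKL 24 h later, and the series title places collection on day 3. Both groups were thus RANKL-treated, and no library without RANKL is analysed here. The labels name no clones, cultures or batches, and they do not say how many shRNA sequences were used.

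Cells take up iron mainly by binding transferrin at the transferrin receptor and carrying it into endosomes, where iron is reduced and moved to the cytosol. Iron that is not used at once is held in ferritin, a shell of heavy and light chains. Cells that are short of iron have active iron regulatory proteins, which bind a stem-loop called the iron-responsive element in certain mRNAs. Binding in the 5′ UTR blocks translation, and binding in the 3′ UTR of Tfrc protects the mRNA from decay. Osteoclasts are rich in mitochondria, and transferrin receptor expression is known to increase as they form.

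The stem-loop sequences are shown because they divide the 10 genes by the kind of control their mRNAs can carry. A search of annotated UTRs for the loop CAGTGN closed by a stem of 5 pairs, G-U pairs allowed, with a C before the 5′ arm, found 7 matches in 4 of the 10 genes. A variant with 1 unpaired base in the 3′ arm, added after the data had been seen, found 1 more, in Slc11a2. Sequences are DNA letters of the transcript strand from GENCODE M21, build GRCm38, which mm10 names, with the 6-base loop in capitals.
Tfrc 3′ UTR, chr16:32631219-32631247: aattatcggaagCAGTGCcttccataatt
Tfrc 3′ UTR, chr16:32631598-32631626: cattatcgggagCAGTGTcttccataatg
Tfrc 3′ UTR, chr16:32631663-32631691: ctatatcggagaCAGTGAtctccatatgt
Tfrc 3′ UTR, chr16:32631710-32631738: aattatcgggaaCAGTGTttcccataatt
Slc11a2 3′ UTR, chr15:100395153-100395181: agccatcagagcCAGTGTgtttctatggt
Fth1 5′ UTR, chr19:9982732-9982760: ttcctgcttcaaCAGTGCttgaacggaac
Ftl1 5′ UTR, chr7:45459779-45459807: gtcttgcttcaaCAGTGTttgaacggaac
Slc40a1 5′ UTR, chr1:45925465-45925493: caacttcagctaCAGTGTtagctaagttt
The Tfrc sites lie on the plus strand of chromosome 16 and the Fth1 site on the plus strand of chromosome 19, and the other sites lie on minus strands. The Fth1 and Ftl1 sites were identical at 26 of 29 positions. The strict pattern was found in a 5′ UTR of 0.148% of 20916 genes and in a 3′ UTR of 0.613% of 21039 genes, and the variant in a 3′ UTR of 1.39%. Genes counted were those with a coding transcript that has an annotated UTR of that kind. No match was found in Steap3, Ncoa4, Aco1, Ireb2 or Fbxl5, which says only that these letters are not in their annotated UTRs.

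**Figure D1:**
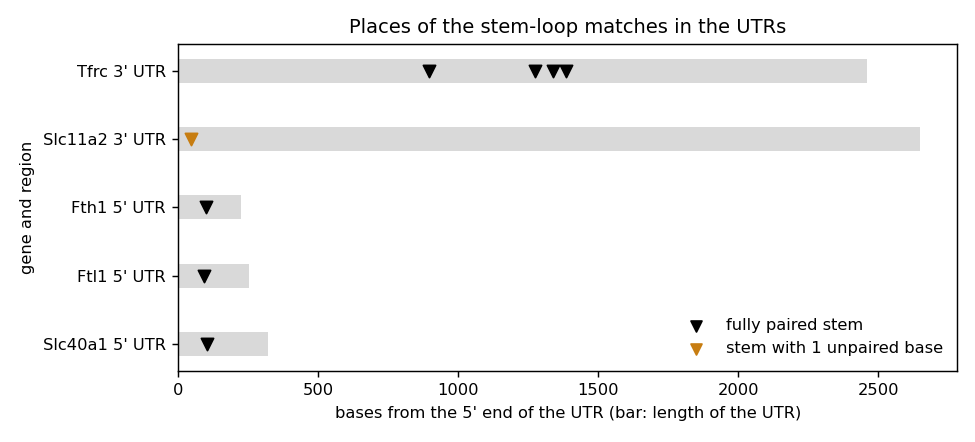
Positions of the stem-loop matches (triangles) along the UTR that holds them (grey bar, length in bases) in 5 genes, counted in bases from the 5′ end of the UTR. Black triangles mark a fully paired stem and the orange triangle a stem with 1 unpaired base. The 4 Tfrc loops begin at bases 895, 1274, 1339 and 1386 of a 2458-base 3′ UTR, and the 5′ UTR loops begin at bases 90 to 102.

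The table held 119350322 counts in the Cpeb4 shRNA library and 79399680 in the control library. Values are given as counts and as counts scaled to library size with TMM factors (CPM), and differences as log2 ratios, Cpeb4 shRNA over control, so that a negative value means lower with the Cpeb4 shRNA. With 1 library in each group there is no test and no replicate check, and the 95% intervals are exact Clopper-Pearson intervals that cover counting error only. The targeted gene Cpeb4 had 13491 counts (104 CPM) in the Cpeb4 shRNA library and 25270 counts (345 CPM) in the control library, a log2 ratio of -1.73 (-1.76 to -1.70). Of 13 osteoclast markers, 11 were lower by 2-fold or more with the Cpeb4 shRNA and the other 2 were within 2-fold, with a summed level of 12989 CPM against 55085 CPM. All 12 proliferation markers were at least 2-fold higher, at 2139 CPM against 164 CPM in sum. Of 11 macrophage markers 8 reached a mean of 1 CPM, 2 lower and 6 within 2-fold, at 3333 CPM against 5360 CPM in sum for the 10 that were listed. Adgre1 and Fcgr1 were under that minimum, and Mrc1 is not analysed here. Of 26 erythroid, lymphoid, fibroblast and osteoblast markers 8 were listed, and none of these reached a mean of 1 CPM (0 of 8). The other 18 have no value here. The part that these differences in cell state have in the values below was not tested, and in bulk RNA fewer cells of a type and less RNA per cell cannot be told apart.

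Of the 10 iron genes, 9 had a lower level with the Cpeb4 shRNA than with the control shRNA, and Ireb2 a higher one. All 10 reached a mean of 1 CPM, as did 12086 genes of the whole table. Among those 12086, 5741 had a log2 ratio below 0 and 6345 had one above 0. Of the 10 iron genes, 3 were at least 2-fold lower (Tfrc, Slc11a2 and Ncoa4), where 11.8% of the 12086 genes were. None was at least 2-fold higher (0 of 10), where 14.6% of all genes were. The median log2 ratio was -0.80 over the 10 genes and 0.05 over all 12086 genes. Together the 10 genes took 0.520% of counts in the Cpeb4 shRNA library (exact 95% interval 0.518% to 0.521%) and 1.14% in the control library (1.137% to 1.142%). Tfrc alone made up 0.203% in the Cpeb4 shRNA library and 0.671% in the control library, so these sums depend largely on 1 gene.

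**Figure D2:**
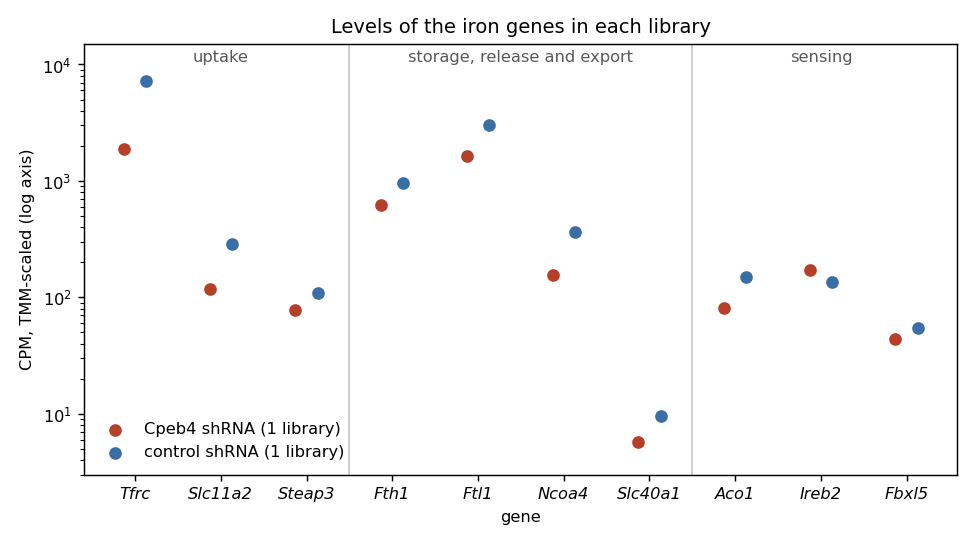
Level of each iron gene in CPM (log axis) in the Cpeb4 shRNA library (red, left) and the control library (blue, right), with 1 library per group and so no error bar. Ireb2 is the gene whose red point is the higher, 173 against 135 CPM, and Tfrc has the widest gap, 1872 against 7275 CPM.

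The lowest log2 ratio of the 10 belonged to Tfrc, the uptake gene that encodes transferrin receptor 1 (ENSMUSG00000022797, chr16:32608920-32632794, plus strand). Tfrc had 242215 counts (1872 CPM) in the Cpeb4 shRNA library and 532843 counts (7275 CPM) in the control library. The log2 ratio was -1.96 (-1.97 to -1.95), a 3.89-fold lower level. Per kilobase of the principal transcript, Tfrc ranked 185 among 18935 genes in the Cpeb4 shRNA library and 27 in the control library, so its transcript was among the abundant ones in both. Tfrc overlaps no other annotated gene and shared no 50-base stretch with another annotated transcript (0 of 6180).

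Slc11a2 encodes the divalent metal transporter DMT1, which moves iron out of the endosome (ENSMUSG00000023030, chr15:100387898-100425072, minus strand). It had 15418 counts (119 CPM) in the Cpeb4 shRNA library and 21144 counts (289 CPM) in the control library, a log2 ratio of -1.28 (-1.31 to -1.25). Slc11a2 exons overlap Gm5475 on the opposite strand, with 18 and 46 counts in the Cpeb4 shRNA and control libraries. The stem-loop found by the variant search lies in 1 Slc11a2 transcript and not in the principal one, and gene counts do not separate these forms. Steap3, a reductase that turns ferric into ferrous iron in the endosome (ENSMUSG00000026389, chr1:120190757-120272705, minus strand), differed less. It had 10007 counts (77.3 CPM) in the Cpeb4 shRNA library and 7941 counts (108 CPM) in the control library, a log2 ratio of -0.49 (-0.53 to -0.44). The 3 uptake genes were thus lower to different extents, since the ratio of Tfrc to Steap3 counts was 24.2 in the Cpeb4 shRNA library and 67.1 in the control library.

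Both ferritin chains were lower in the Cpeb4 shRNA library by less than 2-fold. Fth1, the heavy chain gene, whose product oxidises iron for storage (ENSMUSG00000024661, chr19:9980598-9985098, plus strand), had 79853 counts (617 CPM) in the Cpeb4 shRNA library and 70973 counts (969 CPM) in the control library. Its log2 ratio was -0.65 (-0.67 to -0.64). Ftl1, the light chain gene (ENSMUSG00000050708, chr7:45457944-45459884, minus strand), had 213326 counts (1649 CPM) in the Cpeb4 shRNA library and 219609 counts (2999 CPM) in the control library, a log2 ratio of -0.86 (-0.87 to -0.85). Counts of Fth1 per count of Ftl1 were 0.374 in the Cpeb4 shRNA library and 0.323 in the control library. Ftl1 has many copies in the genome, and 58.4% of its 50-base stretches also occur, on either strand, in other annotated transcripts. That share includes genes that overlap Ftl1 itself. The 8 similar genes in the table held 10790 counts in the Cpeb4 shRNA library and 9815 in the control library, and with them added the Ftl1 log2 ratio was -0.85. Of the 8, Gm10252 and Gm22133 overlap Ftl1 exons, on the opposite and the same strand, rather than lie elsewhere. Gm10252 held 497 and 877 counts in the Cpeb4 shRNA and control libraries, and Gm22133 held 1 and 1.

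Release from ferritin and export from the cell were represented by 1 gene each. Ncoa4 encodes the receptor that delivers ferritin to the lysosome for breakdown (ENSMUSG00000056234, chr14:32159865-32179855, plus strand). It had 20046 counts (155 CPM) in the Cpeb4 shRNA library and 26455 counts (361 CPM) in the control library. The log2 ratio of -1.22 (-1.25 to -1.19) became -0.99, within 2-fold, when the libraries were scaled by total count. Of the 50-base stretches of Ncoa4, 17.9% also occur in Gm6768, whose counts are not analysed here. Slc40a1 encodes ferroportin, the exporter of iron (ENSMUSG00000025993, chr1:45908068-45926523, minus strand). It had the lowest level of the 10 genes, with 739 counts (5.71 CPM) in the Cpeb4 shRNA library and 696 counts (9.50 CPM) in the control library. Its log2 ratio was -0.73, and with so few counts its interval was the widest (-0.89 to -0.58).

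The sensors of iron went different ways. Ireb2 encodes iron regulatory protein 2, which binds iron-responsive elements and is degraded when iron is plentiful (ENSMUSG00000032293, chr9:54863789-54912530, plus strand). It had 22363 counts (173 CPM) in the Cpeb4 shRNA library and 9903 counts (135 CPM) in the control library, a log2 ratio of 0.35 (0.32 to 0.39). Aco1 encodes iron regulatory protein 1, which works as cytosolic aconitase when it holds an iron-sulfur cluster (ENSMUSG00000028405, chr4:40143081-40198338, plus strand). It had 10487 counts (81.0 CPM) in the Cpeb4 shRNA library and 11024 counts (151 CPM) in the control library, a log2 ratio of -0.89 (-0.93 to -0.85). The ratio of Ireb2 to Aco1 counts, which does not depend on how the libraries are scaled, was 2.13 in the Cpeb4 shRNA library and 0.898 in the control library, a 2.37-fold difference. Per kilobase of the principal transcript, the level of Ireb2 was 1.42 times that of Aco1 in the Cpeb4 shRNA library and 0.597 times in the control library. With all annotated exons taken as the length, these ratios were 1.01 in the Cpeb4 shRNA library and 0.426 in the control library.

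Fbxl5 encodes the iron-binding F-box protein that marks iron regulatory protein 2 for degradation (ENSMUSG00000039753, chr5:43744615-43821638, minus strand). It had 5686 counts (43.9 CPM) in the Cpeb4 shRNA library and 3987 counts (54.4 CPM) in the control library. The log2 ratio of -0.31 (-0.37 to -0.25) was -0.08 with total-count scaling. An exon of Fbxl5 overlaps Bst1 on the opposite strand, with 2197 counts in the Cpeb4 shRNA library and 1337 in the control library, and no source used here says whether the counting used strand. Counts of Fbxl5 per count of Ireb2 were 0.254 in the Cpeb4 shRNA library and 0.403 in the control library.

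**Figure D3:**
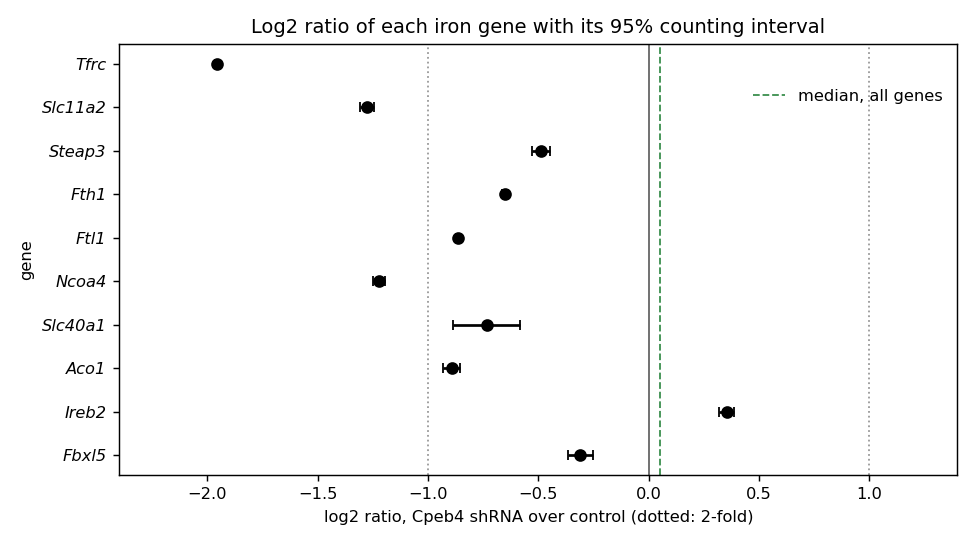
Log2 ratio of Cpeb4 shRNA over control for each iron gene (points), with the 95% counting interval (bars, narrower than the point for Tfrc, Fth1 and Ftl1). Dotted lines mark 2-fold and the dashed line the median of all 12086 genes, 0.05. Tfrc, Slc11a2 and Ncoa4 lie left of the 2-fold line and Ireb2 lies right of 0.

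Set against the ferritin genes within a library, Tfrc was lower in the Cpeb4 shRNA library. Counts of Tfrc per count of Fth1 were 3.03 in the Cpeb4 shRNA library and 7.51 in the control library, a 2.48-fold difference. Counts of Tfrc per count of Ftl1 were 1.14 in the Cpeb4 shRNA library and 2.43 in the control library. These ratios are free of library scaling, but they say only that the genes differed unequally. Per kilobase of the principal transcript, the order in the Cpeb4 shRNA library was Ftl1 (1703 CPM per kb), Fth1 (664), Tfrc (383), Slc11a2 (39.4), Ncoa4 (38.1), Ireb2 (30.0), Aco1 (21.2), Fbxl5 (15.4), Steap3 (15.0) and Slc40a1 (1.69). In the control library Tfrc, at 1488 CPM per kb, stood above Fth1 at 1043. With all annotated exons as the length, Tfrc was above Fth1 in the Cpeb4 shRNA library too, at 303 against 178 CPM per kb. Slc11a2 and Ncoa4, and likewise Steap3 and Fbxl5, were close neighbours in that order, and no replicate shows how far such levels vary.

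**Figure D4:**
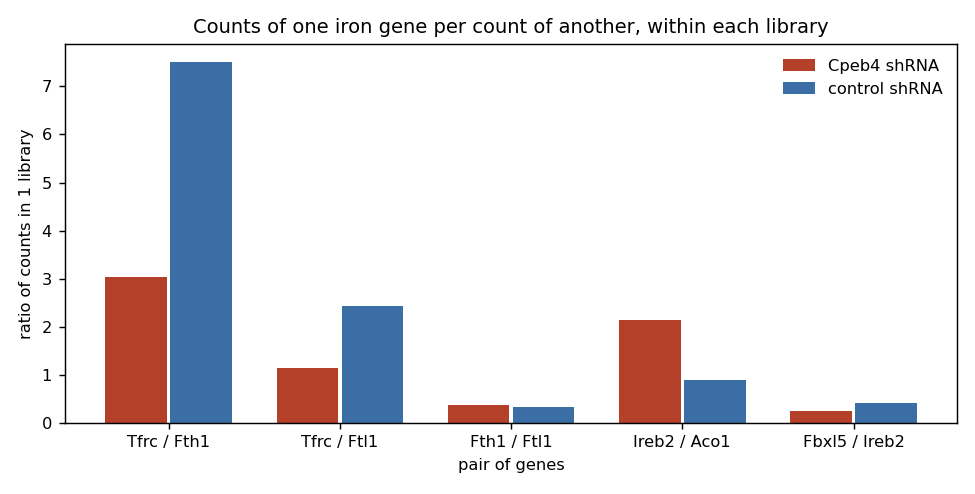
Counts of one iron gene per count of another within each library, for 5 pairs, in the Cpeb4 shRNA library (red, left) and the control library (blue, right), on an axis that starts at 0. The bars for Tfrc over Fth1 stand at 3.03 and 7.51, and those for Ireb2 over Aco1 at 2.13 and 0.898.

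The genes with a stem-loop can be set side by side by its position. The genes with a match in the 3′ UTR, Tfrc and Slc11a2, had the lowest log2 ratios of the 10, -1.96 and -1.28. Slc11a2 is among them only through the variant added after the data had been seen, in a transcript that is not the principal one. The genes with a match in the 5′ UTR, Fth1, Ftl1 and Slc40a1, lay between -0.86 and -0.65. The genes with no match ranged from -1.22 for Ncoa4, close to Slc11a2, to 0.35 for Ireb2. With 5 matched genes this is a description, and iron content and binding by the regulatory proteins were not measured. Outside the 10 iron genes, 85 genes with the strict pattern in a 3′ UTR had a median log2 ratio of -0.04. For 17 such genes with a 5′ UTR match it was 0.19. The 17 include Ftl1-ps1 (-0.62), which is among the similar genes added to Ftl1 above. The letters TTTTAT or TTTTAAT, forms of the element that CPEB proteins bind, were found on the transcript strand of the longest 3′ UTR of 7 of the 10 genes and of 56.6% of 21039 genes. Ireb2 held the most, 8 of TTTTAT and 3 of TTTTAAT in 2789 bases. Fbxl5 followed with 5 and 3 in 2292 bases. Fth1, Ftl1 and Slc40a1 held none (0), in 156, 163 and 1338 bases. The median longest 3′ UTR over protein-coding genes was 960 bases, and neither these counts nor the shares were adjusted for length. Tfrc held 2 and 1 in 2458 bases.

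Other genes of iron and heme handling were mostly within 2-fold. In 9 lists holding 122 symbols, 90 genes reached a mean of 1 CPM. Of these, 3 were at least 2-fold higher, 6 were at least 2-fold lower and 81 were within 2-fold, with a median log2 ratio of -0.25. The shares, 3.33% higher and 6.67% lower, were under those of all genes (14.6% and 11.8%).

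In the list of the transferrin receptor cycle, 1 of 7 genes was lower and none higher (0). It was Steap4, a metalloreductase related to Steap3, with 150 counts (1.16 CPM) in the Cpeb4 shRNA library and 1628 counts (22.2 CPM) in the control library, a log2 ratio of -4.26 (-4.51 to -4.02). Among 9 genes of other iron uptake and cytosolic carriers, Slc22a17, the lipocalin 2 receptor gene, was higher at 2.21, with 1332 counts in the Cpeb4 shRNA library and 163 in the control library. Mcoln1, a lysosomal cation channel gene, was lower at -1.08 and within 2-fold under total-count scaling, where 0 of 9 were lower and 3 of 9 were higher. That scaling raises every log2 ratio by 0.23. Over all genes past the filter it gave 1027 lower and 2510 higher, against 1421 and 1765 with TMM. Of 3 genes of iron export and its regulation, Neo1, which encodes the receptor neogenin, was lower at -2.15, from 113 counts in the Cpeb4 shRNA library and 284 in the control library. None of 6 genes of ferritin variants, delivery and turnover passed 2-fold in either direction (0). They ran from -0.71 for the autophagy receptor gene Nbr1 to 0.02 for the ubiquitin ligase gene Herc2.

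Among 14 SCF partners of Fbxl5 and iron-linked regulators, Myc was higher at 2.86 and the other 13 were within 2-fold. Myc, a transcription factor gene, had 18976 counts in the Cpeb4 shRNA library and 1481 in the control library. Of 13 genes of heme synthesis, Fech, which encodes the enzyme that puts iron into heme, was lower at -1.06 (0 of 13 lower with total-count scaling), with 6792 counts in the Cpeb4 shRNA library and 8007 in the control library. All 8 genes of heme uptake, breakdown and export had a log2 ratio below 0, where 5741 of the 12086 genes past the filter did. Their median was -0.74 and the highest was -0.37. The scalings move every ratio by at most 0.23 in size, so these signs could not change under any of the 5. The folate and heme carrier gene Slc46a1 (-2.51) and the transporter gene Abcc5 (-1.42) were at least 2-fold lower. In the 22 genes of mitochondrial iron import and iron-sulfur cluster assembly the median was -0.08, and 0.15 with total-count scaling. Slc25a37, which encodes the mitochondrial iron importer mitoferrin 1, was higher at 1.30, with 7149 counts (55.3 CPM) in the Cpeb4 shRNA library and 1646 counts (22.5 CPM) in the control library. All 8 genes of cytosolic iron-sulfur cluster assembly were within 2-fold, from -0.45 for Ciao1 to 0.78 for Mms19, which passed 2-fold under total-count scaling.

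**Figure D5:**
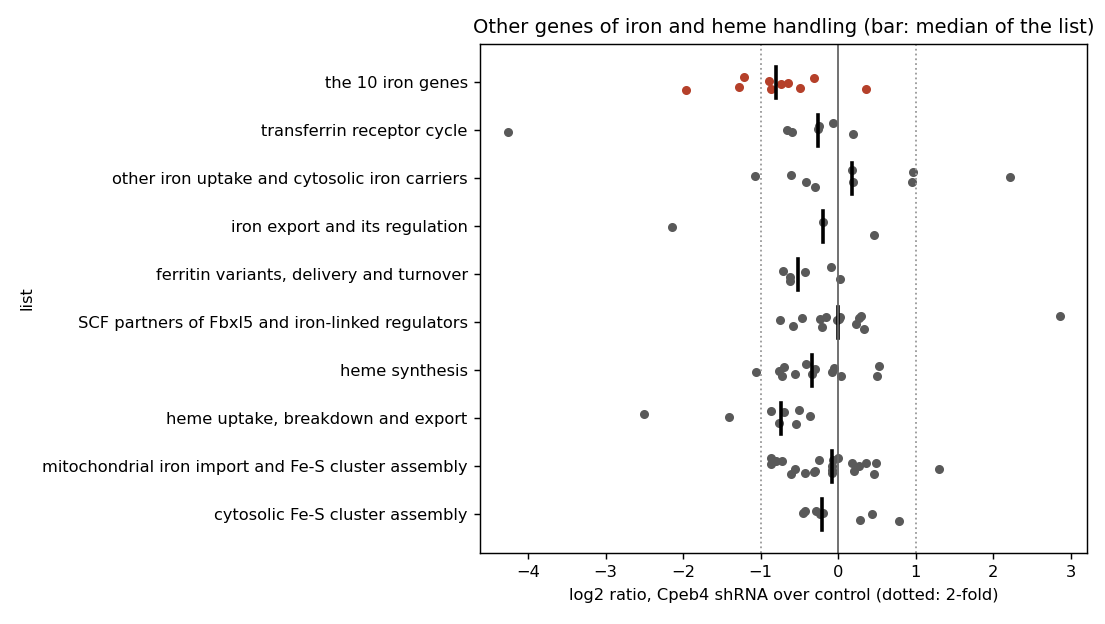
Log2 ratio of Cpeb4 shRNA over control for the 10 iron genes (red) and for 9 lists of other iron and heme genes at a mean of 1 CPM or more (grey points, 1 per gene, spread vertically for legibility). Black bars mark list medians and dotted lines 2-fold. The point furthest left is Steap4 at -4.26 and the point furthest right is Myc at 2.86.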

How the data were processed

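RNA-seq had been done on 1 library per group. The authors deposited whole-number counts per gene for both libraries, and reads were aligned with HISAT2 to mm10, per the submitters' processing notes. No source used here names the counting tool, its annotation, or how it handled strand and reads with several alignments. Each listed gene had at least 1 count in each library. Genes and lists were chosen with earlier results of these data known.

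Libraries were scaled with TMM in edgeR 4.0.16 over all genes (factors 1.08 for Cpeb4 shRNA and 0.922 for control). Log2 ratios used no pseudocount, and a mean of 1 CPM over both libraries was required (12086 of 18987). A difference was counted at 2-fold or more. The median counting interval was 0.16 log2 units wide over all kept genes, and a count of 3 was 0.0232 CPM in the Cpeb4 shRNA library and 0.0410 CPM in the control library. The intervals cover counting error only. They treat each count as independent, and since PCR copies are no independent molecules they may be too narrow even for that. With 1 library per group no test was run.

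Coordinates, lengths, UTRs and transcript sequences came from GENCODE M21, in which 18935 of 18987 identifiers were found. Per-kilobase levels used the transcript with the best APPRIS principal tag. The UTR letters were searched on the transcript strand only. Named genes were the 10 members, Cpeb4 and, from each iron list, up to 3 genes in each direction past 2-fold or, where there were none, the highest and lowest. Ndor1, a symbol shared by several identifiers, was left out. Alternatives were other scalings, among them DESeq2 1.42.0 size factors, pseudocounts, filters and thresholds. Calls were checked on simulated counts.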

Additional observations from a re-analysis of the deposited data

How the results depend on the processing

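No paired analysis was possible because there was only 1 library for each shRNA. All 10 iron genes kept the sign of their log2 ratio under each alternative run, from -2.00 to -1.72 for Tfrc, -0.35 to -0.08 for Fbxl5 and 0.32 to 0.59 for Ireb2. Each scaling moves every log2 ratio by the same amount, at most 0.23 in size here, and a pseudocount cannot change a sign. The kept signs thus follow from the settings. Their median was -0.57 with total-count scaling, -0.81 with DESeq2 size factors, -0.84 with upper-quartile scaling, -0.83 with scaling to 19 reference genes, -0.78 and -0.76 with pseudocounts of 0.5 and 2 CPM, and -0.86 with a minimum mean of 10 CPM, which drops Slc40a1. With libraries scaled by their total counts, each log2 ratio was higher by 0.23, the median of all genes past the filter was 0.29, and 2 of the 10 rather than 3 were at least 2-fold lower. At 1.5-fold 7 of the 10 were lower, where 2674 of the 12086 genes past the filter were. At 4-fold 0 of the 10 were lower, where 426 of the 12086 were. Genes of the 12086 that were higher numbered 3191 at 1.5-fold and 582 at 4-fold. Counts of all genes lower and higher were 2930 and 3217 of 18987 without a filter, and 907 and 1025 with a minimum mean of 10 CPM. The construction of these settings implies such changes. Among genes past 2-fold under total-count scaling, 1027 were lower and 2510 higher, against 1421 and 1765 with TMM. Adding the counts of similar genes, chosen after seeing the data, left Ftl1 at -0.85 and Slc11a2 at -1.28. Variation between cultures or clones cannot be seen with 1 library per group.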

Other observations

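Other genes with the fully paired stem-loop pattern in a UTR were found on both sides of 0. Of those outside the 10 iron genes, 17 with a match in a 5′ UTR reached a mean of 1 CPM, of which 2 were at least 2-fold higher and 3 lower, with a median log2 ratio of 0.19. Ftl1-ps1, a gene similar to Ftl1, is among these 17. Of 85 with a match in a 3′ UTR, 7 were higher and 9 lower, and their median log2 ratio was -0.04. For comparison, the 2-fold rule placed 14.6% of all genes past the filter on the higher side and 11.8% on the lower side.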
